A study of Homo sapiens with 4 samples.

Results

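The genes described are 8 genes of replication-independent histone variants, whose transcripts are not made only in the burst of histone synthesis in S phase: H2AZ1 and H2AZ2 (both encoding H2A.Z), H2AX, MACROH2A1 and MACROH2A2, the linker histone gene H1-10, and H3-3A and H3-3B (both encoding H3.3). They are 8 of 18132 genes named by the arrays. Every probe set, a group of short probes read as 1 value, was taken that the platform annotation gives exactly 1 gene symbol, that symbol being 1 of the 8, which made 21 of 49293 probe sets. The family was listed by name, with earlier results of these data known. H2AZ2 was chosen by the log2 changes of its probe sets, which lie on both sides of 0 in these data. Its changes are therefore given as a description and without a test. The arrays measured total RNA of SCC-9, an established human line grown from tongue squamous cell carcinoma. In the mimic group (n = 2) the cells carried a synthetic mimic of the microRNA miR-585-5p, and in the control group (n = 2) the small RNA miR-NC. Both were transfected at 30 nM, 24 hours after seeding, and RNA was collected 36 hours after transfection. Nothing in the labels tells whether the 2 samples of a group were grown as separate cultures. The p-values therefore speak only of the spread between these samples, and that spread may be technical.

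Most histones are made in S phase from clustered genes without introns, whose messages end in a stem-loop in place of a poly(A) tail. The variants described here are made from single genes through the cell cycle, mostly as polyadenylated messages, and replace the common histones at particular places. H2A.Z marks the nucleosomes beside promoters and enhancers. H2A.X is phosphorylated around DNA double-strand breaks, macroH2A carries a large extra domain and marks silent chromatin, H3.3 is laid down at transcribed genes and at repeats, and H1-10 binds the linker between nucleosomes. A mimic acts through its seed, the bases near its 5' end that pair with target messages. The mature sequence is printed from RefSeq (GRCh38.p14), since it is the agent all comparisons rest on, with the seed (bases 2 to 8) in capitals.
hsa-miR-585-5p: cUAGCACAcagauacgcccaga

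The RefSeq promoter table gives windows for all 8 genes, 12 windows in all, of which the 250 bases before the start were used. Those of H2AZ1, H2AX and H3-3B are printed because most or all of their probe sets were higher in the mimic group, and that of H2AZ2 as the close relative of H2AZ1 with divergent probe sets. They lie in GRCh38.p14 at chr4:99950276-99950525 (minus strand), chr7:44848088-44848337 (minus strand), chr11:119095466-119095715 (minus strand) and chr17:75779780-75780029 (minus strand). Capitals mark the CCAAT box (CCAAT, or ATTGG on the other strand), the TATA motif TATAAA and the motif TTTGAA, each searched on both strands.
H2AZ1: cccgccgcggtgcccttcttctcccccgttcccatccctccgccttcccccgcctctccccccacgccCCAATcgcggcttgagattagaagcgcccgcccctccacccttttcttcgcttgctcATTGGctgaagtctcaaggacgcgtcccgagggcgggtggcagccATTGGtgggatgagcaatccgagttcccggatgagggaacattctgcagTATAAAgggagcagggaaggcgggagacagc
H2AZ2: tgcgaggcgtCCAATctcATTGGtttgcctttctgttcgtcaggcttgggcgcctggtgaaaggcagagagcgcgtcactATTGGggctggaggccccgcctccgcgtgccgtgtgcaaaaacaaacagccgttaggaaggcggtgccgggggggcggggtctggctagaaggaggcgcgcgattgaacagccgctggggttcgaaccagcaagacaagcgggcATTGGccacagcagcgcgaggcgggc
H2AX: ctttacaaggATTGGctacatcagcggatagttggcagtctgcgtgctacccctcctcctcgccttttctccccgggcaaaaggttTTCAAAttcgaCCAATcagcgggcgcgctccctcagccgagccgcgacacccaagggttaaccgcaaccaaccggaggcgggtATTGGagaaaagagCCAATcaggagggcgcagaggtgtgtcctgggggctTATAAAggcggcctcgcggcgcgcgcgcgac
H3-3B: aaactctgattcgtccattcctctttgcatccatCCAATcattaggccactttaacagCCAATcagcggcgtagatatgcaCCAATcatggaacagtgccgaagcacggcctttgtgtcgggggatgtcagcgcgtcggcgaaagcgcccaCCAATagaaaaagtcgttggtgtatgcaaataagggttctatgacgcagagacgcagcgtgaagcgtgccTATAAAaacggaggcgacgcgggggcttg
The CCAAT box occurred 3 times in the H2AZ1 window and 4 times in each of those of H2AZ2, H2AX and H3-3B, and 2.93% of all 35116 promoter windows of this length held at least 3. The windows of MACROH2A2 and H1-10 held 0, the 2 windows of MACROH2A1 0 and 2, and the 4 windows of H3-3A at most 1. TATAAA was present in the windows of H2AZ1, H2AX, H1-10 and H3-3B (10.7% of all windows) and TTTGAA in that of H2AX (13.3%). The letters TTTCCCGC, TTTCGCGC, TTTGGCGC and TTTGCCGC, forms of the E2F motif, were in 0 of the 12 windows (2.79% of all windows held at least 1 of them). No matches overlapped in these windows. A match of letters is a description of the window and shows no binding.

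Of the 21 probe sets, 20 passed the filter on dim values (a mean intensity above 12.0, the 30th percentile) and 1 did not. Leaving out H2AZ2, 15 probe sets of 6 genes were tested. Of these 10 were higher in the mimic group, 0 were lower and 5 did not pass (limma, adjusted p under 0.05 over all 34505 probe sets tested), where 51.0% of all probe sets tested were called, 27.0% higher and 23.9% lower. At an unadjusted p under 0.05 the limma counts were 11 higher and 0 lower. The same count was not made over all probe sets, so nothing is read from it. A called rise of at least 2-fold was seen in 0 of the 15 and in 4.76% of all probe sets tested. The median log2 change of the 15 was 0.29, against -0.04 over all probe sets tested, and 14 of the 15 lay above that median. The groups did not overlap in 12 of the 15, and in 76.8% of all probe sets tested. The 15 probe sets are repeated readings of 6 genes, and 4 of the 10 calls came from H2AZ1 and 3 from H3-3B. At least 1 probe set was called higher in 5 of the 6 genes. This share was not counted over all genes, and several probe sets give a gene several chances, so nothing is read from it. Of the 10 calls, 4 were of _x_at and 3 of _s_at probe sets, suffixes for probes that can match transcripts of other genes.

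These directions hold on the deposited scale, on which the arrays were brought to 1 distribution. Polyadenylated bacterial transcripts spiked into the RNA (the poly(A) spikes, 12 probe sets) read 0.34 higher on the log2 scale in the mimic group. Their mean log2 value per array was 6.21 (mimic replicate 1), 6.17 (mimic replicate 2), 5.76 (control replicate 1) and 5.95 (control replicate 2). The groups did not overlap, but the control replicates lay further apart than the mimic replicates, so the 0.34 is not a precise constant. Setting the arrays to these spikes lowers every change by 0.34 and moves the median of all probe sets tested from -0.04 to -0.38. On that scale 3 of the 15 were called higher, all of H2AZ1, and 3 lower, 1 each of MACROH2A1, H1-10 and H3-3B. Over all 34505 probe sets tested, limma called 3835 higher and 18613 lower with the spikes. That made 22448 called, against 17589 as deposited. An error in the spike values is shared by all probe sets of an array, while limma treats the errors of probe sets as separate. Calls and adjusted p-values on the poly(A) scale are therefore descriptive wherever they are given. Changes relative to the median probe set are alike on both scales.

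**Figure D1:**
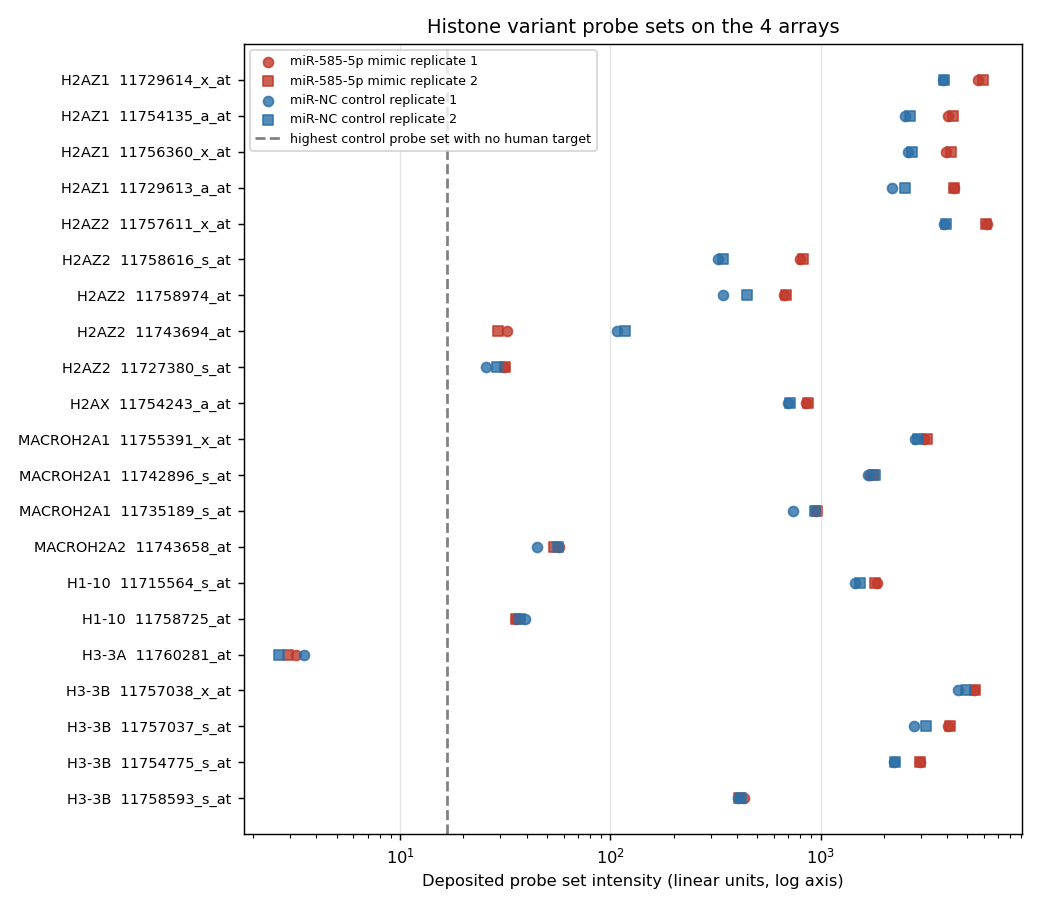
Deposited intensity (log axis) of the 21 histone variant probe sets on each of the 4 arrays, mimic arrays in red and control arrays in blue, with the highest control probe set that has no human target as a dashed line at 16.8. All 4 H2AZ1 probe sets lie higher on both mimic arrays, the H2AZ2 probe set 11743694_at lies lower, and the H3-3A probe set lies left of the line on every array.

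Over probe sets, the log2 values of same-group arrays correlated at 0.998 (mimic) and 0.997 (control) and those of mimic and control arrays at 0.978 to 0.982. The GAPDH 3'/5' ratio, which tracks RNA degradation, was 1.11 in each mimic sample and 1.16 to 1.22 in the controls. The same ratio for ACTB was far higher, at 13.8 to 14.4 over the 4 samples. What part these ratios have in the changes was not tested. All 4 squamous epithelial markers with a probe set here (KRT5, KRT14, CDH1 and SFN) exceeded the no-target controls on all arrays, with a summed intensity of 17892 to 18651 in the mimic group and 16806 to 17223 in the control group. They did not move together: KRT14 was at 0.97 ± 0.05 and KRT5 at 0.24 ± 0.04 (-0.10 with the poly(A) spikes), while SFN was at -0.42 ± 0.04 and CDH1 at -1.26 ± 0.06, each with a limma adjusted p of 2.61e-04 or less. Of 3 leukocyte markers, with a summed intensity of 104 to 120 in the mimic group and 76.9 to 82.2 in the control group, CD14 exceeded those controls on all arrays and was called higher (0.68 ± 0.12, limma adjusted p = 5.34e-04), and PTPRC exceeded them on none. Of 5 fibroblast markers, at 71.6 to 75.8 and 73.0 to 75.5, PDGFRB did so and COL3A1, DCN and LUM lay under them, and of 3 endothelial markers, at 67.5 to 70.7 and 73.8 to 77.8, VWF and PECAM1 did and CDH5 did not. The part of these markers in the changes was not tested.

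H2A.Z transcripts from H2AZ1 rose in the mimic group by every probe set of the gene. The probe set 11729613_a_at read 4299 and 4336 with the mimic and 2181 and 2516 with the control. Both mimic arrays were above both controls, the log2 change was 0.88 ± 0.06 (SE, 2 arrays a group), a 1.84-fold rise, and the limma adjusted p was 2.33e-07. The probe set 11754135_a_at read 4052 and 4267 against 2527 and 2671, a rise of 0.68 ± 0.05 (limma adjusted p = 2.88e-07). In the naming of this array, a suffix _a_at marks probes shared by transcripts of 1 gene, while _s_at and _x_at mark probes that can match transcripts of other genes.

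The 2 other H2AZ1 probe sets carry the suffix _x_at. They read 5636 and 5914 against 3835 and 3863 (11729614_x_at) and 3956 and 4172 against 2613 and 2709 (11756360_x_at). Their rises were 0.59 ± 0.04 and 0.61 ± 0.05 (limma adjusted p = 3.22e-07 and 5.14e-07). In each the groups were apart, and the 4 changes spanned 0.30 on the log2 scale, close to the median span of 0.33 over the 8305 genes with several probe sets tested. With the poly(A) spikes, 11729614_x_at was at 0.25 and no longer passed (limma adjusted p = 0.0550), while the others stayed at 0.27 to 0.54 and passed.

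H2AZ2 encodes a second H2A.Z protein that differs from the first by a few residues. Its 5 probe sets gave changes from -1.87 to 1.28 on the log2 scale, and they were the reason for choosing the gene. The brightest, 11757611_x_at, read 6194 and 6155 with the mimic and 3876 and 3940 with the control, a difference of 0.66 ± 0.04 (SE). The probe set 11758616_s_at read 799 and 825 against 326 and 342, or 1.28 ± 0.06, which made it 2.43-fold higher in the mimic group. Both pairs of arrays were well apart in these probe sets.

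The probe set 11758974_at, which carries no suffix for shared probes, read 673 and 683 with the mimic and 344 and 449 with the control, a difference of 0.79 ± 0.10. Its control arrays were 0.38 apart on the log2 scale and its mimic arrays 0.02. The probe set 11743694_at, also without such a suffix, went the other way. It read 32.4 and 29.1 with the mimic and 107 and 117 with the control, a difference of -1.87 ± 0.11, or 3.65-fold lower in the mimic group.

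The dimmest H2AZ2 probe set, 11727380_s_at, read 31.3 and 31.7 against 25.7 and 28.8, or 0.21 ± 0.13. Its mean was 1.75 times the brightest no-target control (16.8), and with the poly(A) spikes its value turned to -0.13. The other 4 kept their sign in every alternative run that held them. All runs use the same arrays by which the gene was chosen, so no support is read from this. The mean of 11743694_at was 4.25 times that control, and with 16 added to each intensity before the log its difference was -1.45.

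The span of the H2AZ2 changes was 3.15 on the log2 scale. Among the 8305 genes with several probe sets tested 511, or 6.15%, had at least 1 probe set called higher and at least 1 called lower, and since H2AZ2 was chosen for such a pattern nothing is read from that share. Set against the brightest H2AZ2 probe set within each array, the change of 11743694_at was -2.53 ± 0.12 and that of 11758616_s_at 0.62 ± 0.10 on the log2 scale. For 11758974_at this difference of changes was 0.13 ± 0.15, and for 11727380_s_at it was -0.45 ± 0.11. Which stretch of the H2AZ2 message each probe set reads was not analysed here.

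**Figure D2:**
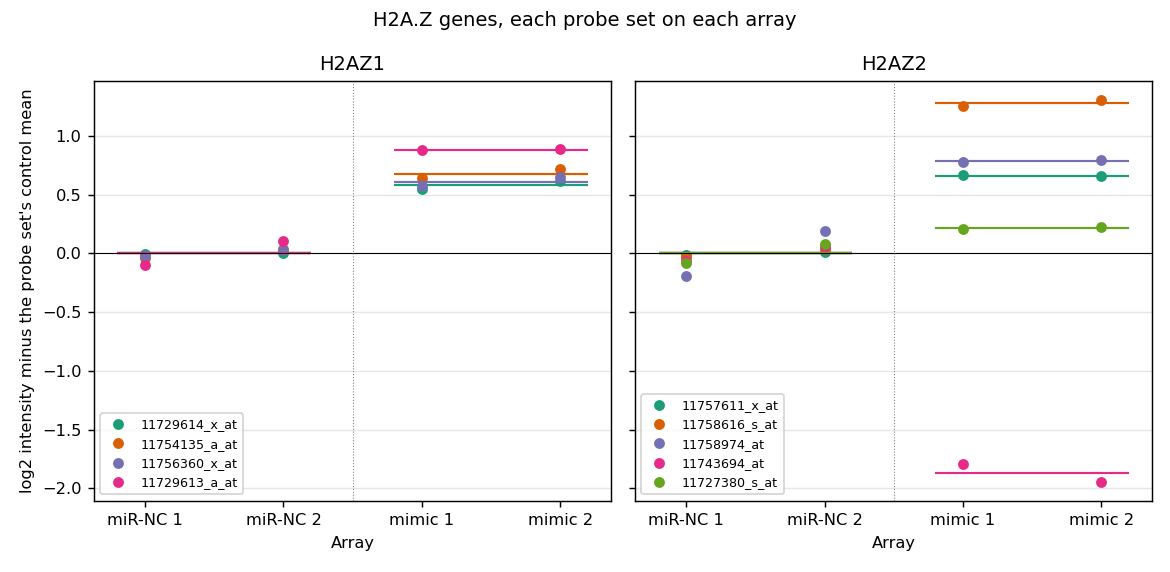
Log2 intensity of each H2AZ1 (left) and H2AZ2 (right) probe set on each array, relative to the mean of its 2 control arrays, with bars at the group means. The H2AZ1 probe sets lie at 0.59 to 0.88 in the mimic group, while those of H2AZ2 lie at -1.87 to 1.28.

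H2AX, the variant phosphorylated at double-strand breaks, is made both as a stem-loop message in S phase and as a polyadenylated one. Its 1 probe set, 11754243_a_at, read 853 and 867 in the mimic group and 697 and 714 in the control group. The groups did not overlap, and the rise of 0.29 ± 0.06 (log2, SE, n = 2 per group) passed (limma adjusted p = 0.00120). With the poly(A) spikes the change was -0.05 and did not pass (limma adjusted p = 0.664).

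H3.3 was measured through H3-3B, by 4 probe sets that all carry a suffix for shared probes. The probe set 11757037_s_at read 4030 and 4119 with the mimic and 2773 and 3175 with the control, a rise of 0.46 ± 0.06 (limma adjusted p = 3.74e-05). The probe set 11754775_s_at read 2976 and 2981 against 2234 and 2271, a rise of 0.40 ± 0.04 (limma adjusted p = 1.07e-05). In both the mimic arrays were above the controls by more than the gap between replicates.

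The brightest H3-3B probe set, 11757038_x_at, read 5366 and 5418 against 4518 and 4911. Its rise of 0.19 ± 0.05 passed (limma adjusted p = 0.00367), but not without mimic replicate 1 (0.20, limma adjusted p = 0.0683) or mimic replicate 2 (0.19, limma adjusted p = 0.0870). The dimmest, 11758593_s_at, read 431 and 411 against 406 and 416, so that the groups overlapped, and was at 0.03 ± 0.07 (limma adjusted p = 0.697). With the poly(A) spikes no H3-3B probe set was called higher, and the 4 changes ran from -0.31 to 0.12, with 11758593_s_at called lower (limma adjusted p = 0.0113).

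H3-3A, the other gene of H3.3, had 1 probe set of its own here, 11760281_at, which read 3.19 and 2.94 in the mimic group and 3.47 and 2.66 in the control group. All 4 values lay under the no-target controls, so no change is given. The annotation gives 3 more probe sets both H3-3A and the pseudogene symbol H3P6, and these were not used.

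Changes of macroH2A were small where they passed. MACROH2A1 had 3 probe sets, all with a suffix for shared probes. The brightest, 11755391_x_at, read 3100 and 3211 with the mimic and 2821 and 2919 with the control, a rise of 0.14 ± 0.04 (limma adjusted p = 0.0238). It did not pass without control replicate 1 (0.11, limma adjusted p = 0.0611), without mimic replicate 1 (0.16, limma adjusted p = 0.0888) and without mimic replicate 2 (0.11, limma adjusted p = 0.222), and with the poly(A) spikes it was at -0.20.

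The probe set 11742896_s_at read 1712 and 1766 against 1682 and 1812, and its change of -0.01 ± 0.05 did not pass (limma adjusted p = 0.937), the control values lying on both sides of the mimic values. It was called lower on the poly(A) scale, at -0.34 (limma adjusted p = 0.00372). The probe set 11735189_s_at read 949 and 966 against 736 and 941. Its change of 0.20 ± 0.09 did not pass (limma adjusted p = 0.0857), with control replicate 1 apart from the other 3 arrays. It was at 0.38 and passed without control replicate 2 (limma adjusted p = 2.94e-04), and it also passed with the replicate number as a block (0.20, limma adjusted p = 0.00425).

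MACROH2A2, the second macroH2A gene, read 57.2 and 54.2 in the mimic group and 44.9 and 56.4 in the control group by its 1 probe set, 11743658_at. The groups overlapped, and the change of 0.15 ± 0.13 did not pass (limma adjusted p = 0.368). This dim probe set averaged 3.17 times the brightest no-target control.

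The linker histone gene H1-10 had 2 probe sets that differed in brightness. The brighter, 11715564_s_at, read 1855 and 1821 with the mimic and 1458 and 1546 with the control, a rise of 0.29 ± 0.05 (limma adjusted p = 4.76e-04). The dimmer, 11758725_at, read 35.7 on both mimic arrays and 39.2 and 37.3 with the control, and its change of -0.10 ± 0.12 did not pass (limma adjusted p = 0.514). These were, on the poly(A) scale, at -0.05 and -0.44, and the second was called lower (limma adjusted p = 0.0221).

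**Figure D3:**
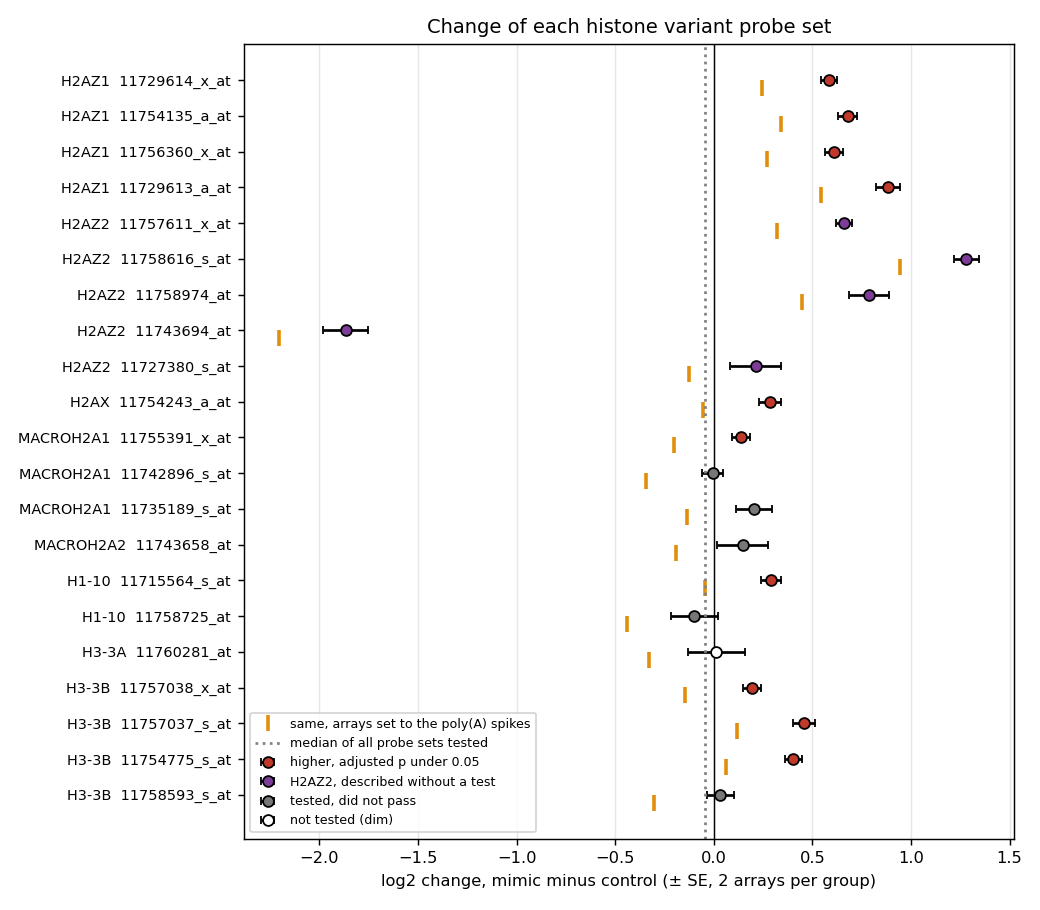
Log2 change, mimic minus control, of the 21 probe sets with its SE (2 arrays per group), coloured by the limma call, with the value on the poly(A) spike scale as an orange tick and the median of all probe sets tested (-0.04) as a dotted line. The H2AZ1 points stay right of 0 on both scales, while those of H2AX, macroH2A and H1-10 lie left of 0 on the poly(A) scale.

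Whether probe sets of 1 gene changed by different amounts was tested on their log2 difference within each array. For the 9 pairs of the brightest with another probe set in H2AZ1, MACROH2A1, H1-10 and H3-3B, 0 passed (limma, adjusted over 17630 pairs, of which 22.5% passed), and 3 had an unadjusted p under 0.05. The lowest adjusted p-values were those of the pairs in H1-10 (-0.39 ± 0.11, limma adjusted p = 0.0638) and of 11757037_s_at in H3-3B (0.26 ± 0.08, limma adjusted p = 0.0719). Both passed with a filter at the 50th percentile (limma adjusted p = 0.0424 and 0.0475) and with 16 added to each intensity (0.0196 and 0.0374 by limma), and the first also without the intensity trend (limma adjusted p = 0.0463). For 11729613_a_at in H2AZ1 the difference from the brightest probe set was 0.30 ± 0.10 (limma adjusted p = 0.0902), and it passed without control replicate 2 (0.39, limma adjusted p = 0.0456) and with 16 added (0.29, limma adjusted p = 0.0482).

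Genes that place, remove or read these variants were described by the brightest probe set of each gene, from lists written with earlier results of these data known. Of all 14122 genes tested this way 54.4% were called, 27.9% higher and 26.6% lower, with a median log2 change of -0.06. Of 22 genes of H2A.Z exchange and eviction, 10 were called higher and 6 lower, with a median of 0.19. On the poly(A) scale 3 were called higher and 9 lower, where 1600 of all 14122 genes were called higher and 8019 lower. The same background applies to the counts on that scale for the lists below.

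The higher genes of this list included YEATS4, a subunit shared by the SRCAP and TIP60 complexes, which read 434 and 441 in the mimic group and 248 and 243 in the control group, a rise of 0.83 ± 0.07. The complex subunits MEAF6 and MBTD1 rose by 0.68 ± 0.09 and 0.65 ± 0.11. The 1 other probe set of MEAF6 was called higher, and that of MBTD1 did not pass. With the poly(A) spikes MBTD1 was at 0.31 and missed the threshold (limma adjusted p = 0.0568). The lower genes included EP400, an ATPase that deposits H2A.Z, which read 61.5 and 63.2 against 112 and 116, a change of -0.87 ± 0.10, and its 4 other probe sets were also called lower. INO80, the ATPase of a remodeller that acts on H2A.Z nucleosomes, was at -0.77 ± 0.09 with its 3 other probe sets called lower, and the scaffold TRRAP at -0.77 ± 0.07. SRCAP, the main H2A.Z-depositing ATPase and named after its value was seen, was at -0.56 ± 0.11, and its 1 other probe set did not pass. Each of these 7 genes had a limma adjusted p of 8.48e-04 or less.

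Among 8 chaperones of H3.3, 3 were called higher and 4 lower, with a median of -0.03. UBN2, of the HIRA complex that deposits H3.3 at genes, read 24.3 and 20.2 in the mimic group and 58.3 and 57.9 in the control group, a change of -1.39 ± 0.13 (limma adjusted p = 3.26e-06), and its 2 other probe sets were also called lower. CABIN1, of the same complex, read 43.6 and 42.7 against 94.1 and 79.5 (limma adjusted p = 1.78e-05), with its 1 other probe set called lower. UBN1, a paralog of UBN2, was at -0.27 ± 0.10 (limma adjusted p = 0.0442), and missed the threshold without mimic replicate 1 (-0.33), without control replicate 2 (-0.14) and without mimic replicate 2 (-0.22). HIRA itself, with DAXX named after its value was seen, was at 0.12 ± 0.07 and did not pass (limma adjusted p = 0.149), while its 1 other probe set was called lower. The list held 1 gene called higher and 2 lower without mimic replicate 1, and likewise without mimic replicate 2, and 1 higher without control replicate 1.

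The higher genes were ASF1A 0.24 ± 0.08, DEK 0.23 ± 0.06 and ATRX 0.20 ± 0.07 (limma adjusted p = 0.0232, 0.00479 and 0.0280), the last a remodeller that places H3.3 at repeats together with DAXX, which was at -0.18 ± 0.07 (limma adjusted p = 0.0385). All 3 had negative changes with the poly(A) spikes. On that scale 0 of the 8 were called higher and 4 lower, against 1600 and 8019 of all 14122 genes. ASF1A missed the threshold without control replicate 1 (0.22), without mimic replicate 1 (0.25) and without mimic replicate 2 (0.23). ATRX missed it without mimic replicate 1 (0.12) or control replicate 1 (0.19), and DEK without mimic replicate 2 (0.17).

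Of 12 chaperones that act with replication, 7 were called higher and 1 lower, with a median of 0.24, and with the poly(A) spikes 3 higher and 2 lower. CHAF1A, the large subunit of CAF-1, read 140 and 161 against 75.7 and 68.5, a rise of 1.06 ± 0.10 (limma adjusted p = 4.74e-06). HAT1, which acetylates new H4, rose by 0.84 ± 0.07, and ASF1B by 0.93 ± 0.18, though not without mimic replicate 1 (0.89, limma adjusted p = 0.0599), and 1 of its 2 other probe sets was called lower. Without mimic replicate 2 the list held 4 genes called higher. The importin IPO4 fell by 0.55 ± 0.09. Of 7 chaperones of H2A and H2B, 4 were called higher (1 with the poly(A) spikes) and 0 lower (2 with the poly(A) spikes), led by nucleolin (NCL) at 0.84 ± 0.05, SET at 0.52 ± 0.04 and SUPT16H at 0.46 ± 0.06. By the mean of all tested probe sets of a gene, 7 of the 7 were called higher.

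Of 15 genes that phosphorylate, read or dephosphorylate H2A.X, 10 were called higher and 1 lower, with a median of 0.28, and with the poly(A) spikes 4 higher and 5 lower. BRCA1, which is recruited to marked breaks, read 72.2 and 80.6 in the mimic group and 25.2 and 29.0 in the control group, a rise that passed (limma adjusted p = 1.18e-06), as did its 3 other probe sets. The checkpoint kinase ATR read 224 and 231 in the mimic group and 112 and 118 in the control group, a rise of 0.99 ± 0.08 (limma adjusted p = 1.29e-06). NBN, of the MRN complex, rose by 0.85 ± 0.06 and the phosphatase EYA3 fell by 0.41 ± 0.07 with 2 other probe sets that did not pass, while MDC1, the main reader of phosphorylated H2A.X and named after its value was seen, was at 0.04 ± 0.08 and did not pass (limma adjusted p = 0.678). The list held 5 genes called higher without mimic replicate 1 or mimic replicate 2, and 2 lower without control replicate 1. By the mean of all tested probe sets of a gene it held 6 called higher and 2 lower.

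Of 4 partners of macroH2A, 3 were called higher and 1 lower, and with the poly(A) spikes 2 higher and 1 lower. The remodeller HELLS was at 1.35 ± 0.11, PARP1 at 0.64 ± 0.07, and SPOP, an adaptor of the ubiquitin ligase that acts on macroH2A, at -0.50 ± 0.06 with its 3 other probe sets called lower. CUL3, of the same ligase, was at 0.34 ± 0.08 and missed the threshold without mimic replicate 1 (0.34, limma adjusted p = 0.0834) or mimic replicate 2 (0.34, limma adjusted p = 0.0890).

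Of 4 readers of variant nucleosomes, 3 were called higher and 1 lower, with 0 higher and 1 lower on the poly(A) scale. The H2A.Z readers PWWP2A and PWWP2B were at 0.54 ± 0.07 and 0.37 ± 0.08, and BRD2 at -0.32 ± 0.05. The 1 other BRD2 probe set did not pass. ZMYND11, which binds modified H3.3, was at 0.21 ± 0.06, and at -0.13 with the poly(A) spikes. Without mimic replicate 1, PWWP2B (0.33, limma adjusted p = 0.0758) and ZMYND11 (0.19, limma adjusted p = 0.115) missed the threshold, and without mimic replicate 2 so did ZMYND11 (0.23, limma adjusted p = 0.0773).

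Other variants are also made outside the histone clusters. CENPA, the H3 variant of centromeres, read 536 and 556 in the mimic group and 110 and 99.9 in the control group, a rise of 2.38 ± 0.08 (limma adjusted p = 1.23e-09). H2AJ read 19.5 and 20.1 against 29.9 and 34.3, a change of -0.69 ± 0.14 (limma adjusted p = 0.00107) close to the no-target controls. Of 60 genes of the replication-dependent clusters, 33 had a probe set above the filter on dim values. Of these 33, 2 were called higher and 10 lower, with a median of -0.09, where 27.9% of all genes were called higher and 26.6% lower. The higher were H2BC9 (0.56 ± 0.12, limma adjusted p = 0.00165) and H4C3 (0.41 ± 0.05, limma adjusted p = 2.56e-05). H1-2 read 131 and 126 in the mimic group and 409 and 428 in the control group, a change of -1.70 ± 0.08. H3C4 was at -1.18 ± 0.14 and H2BC4 at -0.94 ± 0.13. These lowest 3 had a limma adjusted p of 7.38e-05 or less. All but H3C4 were read by _x_at or _s_at probe sets. With the poly(A) spikes 0 of the 33 were higher and 18 lower, where 1600 of all 14122 genes were higher and 8019 lower. Without the suffixes _x_at and _s_at, which mark shared probes in this family of near-identical genes, 1 was called higher and 5 lower, with fewer genes tested. Some of the 33 read close to the no-target controls. H4C1, named after its value was seen, read 13.8 and 15.7 in the mimic group and 14.2 and 13.0 in the control group. The difference between these genes and the variants was not tested.

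**Figure D4:**
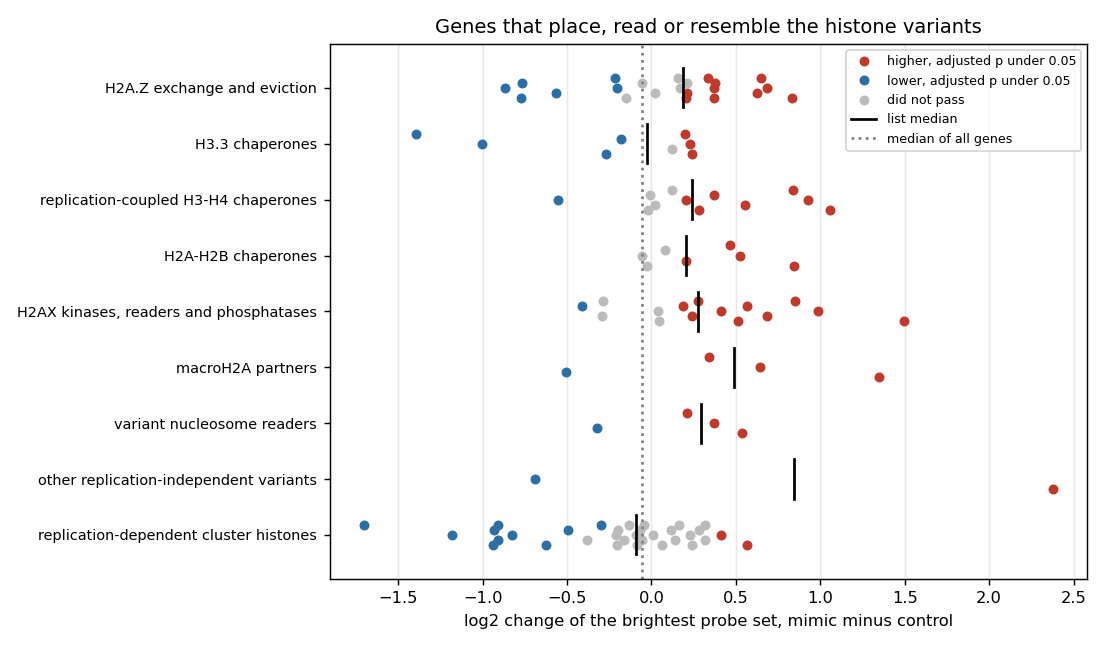
Log2 change, mimic minus control, of the brightest probe set of each gene in the lists around the histone variants, red and blue where the limma adjusted p was under 0.05 and grey where it was not, with black bars at list medians and a dotted line at the median of all genes (-0.06). The H2A.Z exchange genes and the H3.3 chaperones hold called genes on both sides, from -0.87 to 0.83 and from -1.39 to 0.24.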

How the data were processed

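Total RNA of 4 samples was measured on 1 array each, biotin-labelled from 2 ug per the labels' protocols. The deposited intensity values are those of RMA, per the submitters' processing notes, which corrects background, brings arrays to 1 distribution and summarises probe sets. They run on a linear scale, so log2 was taken here. Settings of RMA are not given in the sources used here. Gene symbols came from the platform annotation (44988 probe sets with 1 symbol, 1832 with several, 2473 with none), and 102 control probe sets were left out. The 34505 probe sets with a mean above the 30th percentile entered limma 3.58.1 under R 4.3.3 (lmFit, eBayes with trend; 2 residual degrees of freedom, prior 9.59), two-sided, with Benjamini-Hochberg adjustment over all of them. A second such fit took differences between probe sets of a gene. Both were tested on simulated data. Background was read from 20 control probe sets with no human target. Errors of log2 changes are SEs, and the number of arrays limits the precision. Groups came from the sample titles. The text names every member probe set, and of each list the called genes with the 3 highest and 3 lowest changes, unless said otherwise. Members, lists and tests were chosen with earlier results of these data known. Alternatives were other scalings, filters, spreads, an added offset, no shared-probe suffixes, a gene mean, a replicate block and leaving out each array. Protein and transcript sequences were not used.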

Additional observations from a re-analysis of the deposited data

How the results depend on the processing

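With the poly(A) spikes, 3835 probe sets were called higher and 18613 lower (9332 and 8257 as deposited), 3 and 3 of the variants other than H2AZ2, 1600 and 8019 genes, and 14 and 25 genes of the context lists. On that scale the change turned to -0.054 for H2AX, -0.047 for H1-10 11715564_s_at, -0.20 for MACROH2A1 11755391_x_at, -0.14 for MACROH2A1 11735189_s_at and H3-3B 11757038_x_at, -0.19 for MACROH2A2, -0.31 for H3-3B 11758593_s_at, -0.13 for H2AZ2 11727380_s_at and ZMYND11, -0.10 for ASF1A, -0.14 for ATRX and -0.11 for DEK. Quantile normalization repeated here gave -0.011 for H3-3B 11758593_s_at, and a shared median gave 0.0024 for MACROH2A1 11742896_s_at.

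The span of the H2AZ2 changes, 3.15, was 2.70 with 16 added to each intensity and 2.65 without probe sets of the suffixes _x_at and _s_at. Without those, fewer probe sets were tested: 11525 were called in all (17589 with them) and 5982 higher. Of the variants other than H2AZ2, 3 probe sets with the suffix _a_at and 2 with _at remained, and 3 were called higher. Within genes, 2316 pairs were called (3970 with the shared-probe suffixes), and 328 genes in both directions (511 with these suffixes). Over each pair of tested probe sets, 7392 pairs were called.

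Leaving out each array in turn gave 11185 to 18091 probe sets called, 4924 to 8407 lower, 2389 to 3862 genes lower, 1083 to 4073 pairs, 178 to 578 genes in both directions and 27 to 41 context genes higher, the lowest of each without mimic replicate 2, and for the last also without mimic replicate 1. With an array left out, the lone sample of its group is assumed to vary like the other group. The change ran from -0.059 to 0.048 for MACROH2A1 11742896_s_at, from -0.018 to 0.31 for MACROH2A2, from -0.00052 to 0.068 for H3-3B 11758593_s_at, and from -0.086 to 0.22 for the difference between MACROH2A1 11735189_s_at and 11755391_x_at.

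MACROH2A1 11755391_x_at also missed the threshold after quantile normalization (0.08, limma adjusted p = 0.129), and without the intensity trend it and H3-3B 11757038_x_at did (limma adjusted p = 0.199 and 0.106), as did ATRX, DEK, UBN1, CUL3 and ZMYND11 (0.113, 0.0716, 0.0974, 0.0584 and 0.0917 by limma). ATRX also missed it after quantile normalization (limma adjusted p = 0.0869), and UBN1 with a shared median (0.0594) and with no filter (0.0550).

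The groups share replicate numbers, but deviations of same-numbered samples correlated at only 0.0747 over probe sets, so the numbers were not taken as pairs. With the replicate block, 18959 probe sets were called, 9850 higher and 9109 lower, and 11 of the variants higher and 0 lower. With 2 arrays a group and a median SE of 0.11 on the log2 scale, small changes cannot be told from the spread, and 4 of the variant probe sets averaged under 4 times the brightest no-target control.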
